A study of Danio rerio with 6 samples.

Results

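Amanitin is a toxin that blocks RNA polymerase II, the enzyme that transcribes messenger RNA genes. Zebrafish embryos injected with it held some RNAs at a higher relative level at 6 hours post fertilisation (hpf) than control embryos held at 2 hpf. These RNAs were chosen by 2 values of the same table, an FPKM (fragments scaled to gene length and to the library) of at least 5 in amanitin and at least 3.5 times that of 2 hpf. Of 32571 rows, each a gene, 210 passed both thresholds. Leaving out 64 small RNA rows and exosc1 gave 145 members. The small RNA names left out do not include vault RNAs, which are also short, so Vault RNA rows stayed. Without them the members would number 143. Of the 145, 94 carried a gene symbol and 51 a clone name or no name, 10 of which a reference list of gene IDs named.

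The fertilised egg carries RNA laid down by the mother, and the embryo's own genome is silent at first. When zygotic transcription starts, part of the maternal RNA is degraded, in zebrafish partly through the microRNA miR-430 and the CCR4-NOT complex, which shortens poly(A) tails. Embryos without zygotic transcription keep many maternal RNAs longer.

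All groups were pools of 40 to 50 whole embryos of the AB strain, and each had 1 deposited value per gene, although the series design states triplicates. The groups at 6 hpf were embryos injected with amanitin, with CNOT7-DN, a reagent that the series design describes as CNOT7 inhibition, or with a morpholino against miR-430 (miR-430 MO), a control of the amanitin experiment (control B) and a control without that note (control 6 hpf). Control embryos at 2 hpf completed the set. The columns carry no spread between replicates, so the only test is the q-value of the authors' deposited table, and no depth is known. FPKM is relative to all RNA sequenced, and in whole embryos fewer cells of a type and less RNA per cell cannot be told apart.

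The label of the amanitin group was checked against marker genes. Summed FPKM of 7 rows of the enveloping layer, the embryo's outer epithelium, was 25.3 in amanitin, against 4025 in control B and 19.2 at 2 hpf. The 6 early mesendoderm rows summed to 1.46 in amanitin, against 880 in control B and 3.26 at 2 hpf. The yolk syncytial layer, with 7 rows, stood at 2.75 in amanitin, 2839 in control B and 1.39 at 2 hpf. Germ plasm RNA, which is maternal, summed to 826 in amanitin, 243 in control B and 1176 at 2 hpf over 6 rows. None of these marker rows is a member.

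The 145 members ranged between 5.11 and 536 FPKM in amanitin. They fell into groups separated by a gap in the 2 hpf level, a split made after the values were seen. There were 127 members present at 2 hpf, at 0.654 FPKM or more, and 18 members near 0 at 2 hpf, at 0.334 FPKM or less, 15 of them listed at 0. Among the 127 the median level was 23.4 FPKM in amanitin, 7.21 in CNOT7-DN and 6.26 in miR-430 MO, against 11.4 in control B, 6.78 in control 6 hpf and 4.99 at 2 hpf. Amanitin was the highest of the 6 groups for 108 of them and control B for the other 19, while 2 hpf was the lowest for 66. The rule favours these ranks of amanitin and 2 hpf, so nothing is read from the counts. The median ratio of amanitin to 2 hpf was 4.3, a value set by the selection.

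In the authors' deposited table, 130 of 138 members tested were higher in amanitin than at 2 hpf with a q under 0.05, where 22.2% of all rows tested were called higher and 44.1% lower. Nothing is read from this count, because that contrast chose the members. Values just inside the fold threshold were 3.52 for nlk2, a kinase, and for ncoa6, a nuclear receptor coactivator, 3.53 for six4.3 and eomesa, both transcription factors, and 3.55 for the splicing factor sf1. Just outside stood wnk1b at 3.49, zfpm1 and tjp1a at 3.48, and zfr2 and cnot1 at 3.47. The level minimum left out espn, at 4.95 FPKM in amanitin.

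**Figure D1:**
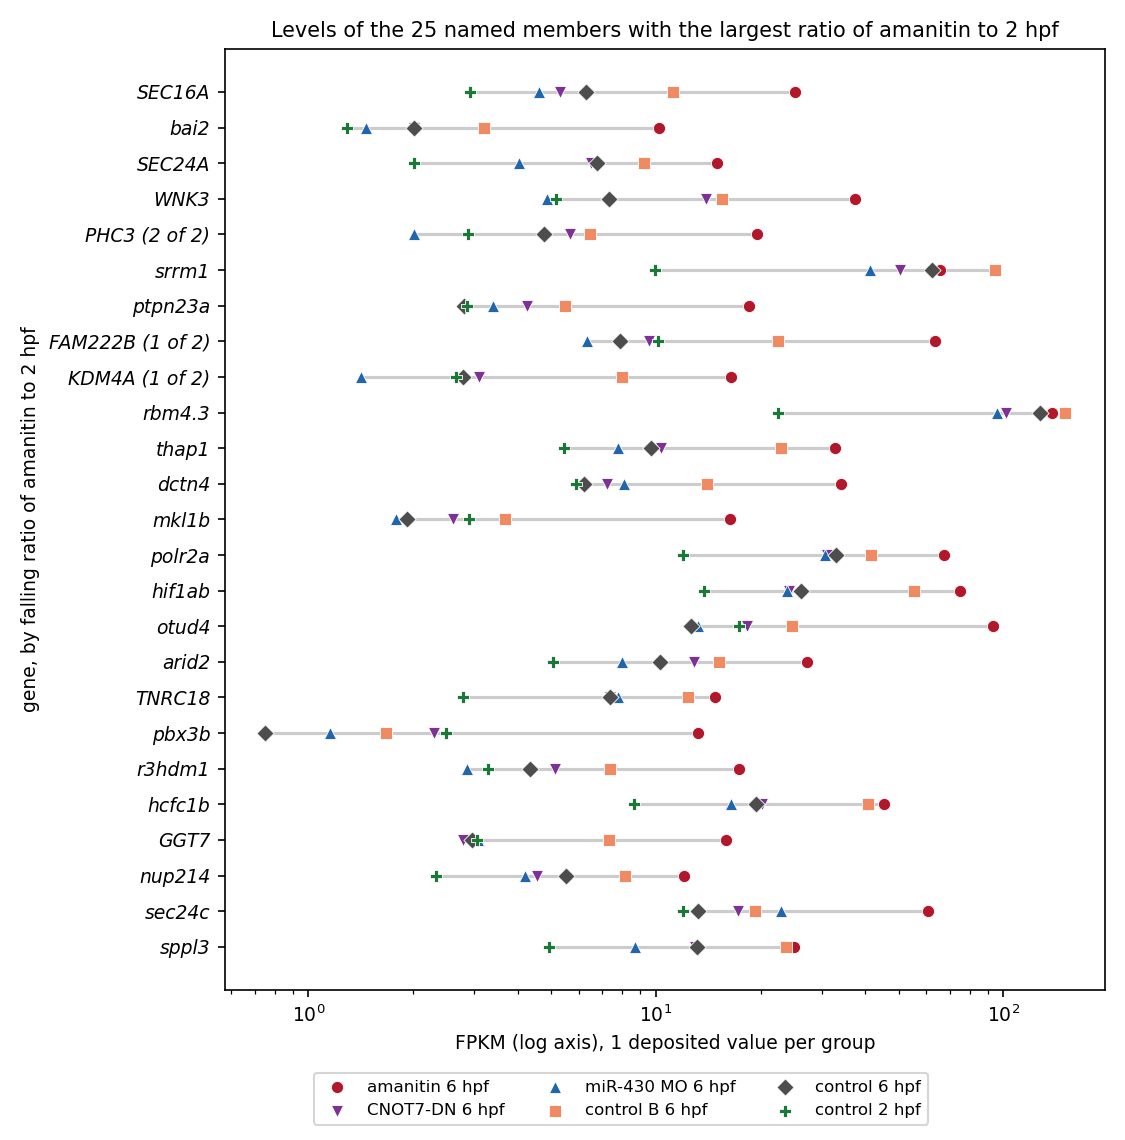
FPKM on a log axis of the 25 named members with the largest ratio of amanitin to 2 hpf among those called in that comparison. Each symbol is the 1 deposited value of a group and each line spans the 6 groups. Amanitin lies rightmost for most genes, while control B is the rightmost symbol for srrm1 (94.7) and rbm4.3 (150).

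The members present at 2 hpf included 4 proteins of endoplasmic reticulum exit sites, where COPII coats bud vesicles with newly made cargo. SEC16A, the scaffold of these sites (ENSDARG00000063300, chromosome 16, 55548083 to 55591614 on Zv9), stood at 25.2 FPKM in amanitin, 5.30 in CNOT7-DN and 4.6 in miR-430 MO, against 11.2 in control B, 6.29 in control 6 hpf and 2.92 at 2 hpf. Its ratio of 8.61 to 2 hpf was the largest among members present at 2 hpf that carry a gene symbol. A row without a symbol of its own, which the reference list names MYOM2, had a ratio of 10.8, at 7.09 FPKM in amanitin and 0.654 at 2 hpf. SEC24A, a cargo adaptor of the coat (ENSDARG00000053439, chromosome 21, 44326512 to 44372933), stood at 14.9 FPKM in amanitin, 6.50 in CNOT7-DN and 4.04 in miR-430 MO, against 9.24 in control B, 6.78 in control 6 hpf and 2.01 at 2 hpf.

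The related adaptor sec24c had 60.8 FPKM in amanitin, 17.2 in CNOT7-DN and 22.9 in miR-430 MO, against 19.2 in control B, 13.2 in control 6 hpf and 12 at 2 hpf. The gene sec23ip, whose product binds the coat subunit Sec23, had 67.2 FPKM in amanitin, 16 in CNOT7-DN and 16.7 in miR-430 MO, against 29.2 in control B, 17.1 in control 6 hpf and 17.2 at 2 hpf. All 4 were highest in amanitin, and control B came next for SEC16A, SEC24A and sec23ip, and miR-430 MO for sec24c. Between amanitin and control B the q in the authors' deposited table was 0.182 for SEC24A, whose locus is shared with another row. It was 0.000105 for SEC16A, sec24c and sec23ip.

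Members among the RNA polymerase II machinery and its coactivators numbered 8. The gene polr2a, which encodes the largest polymerase subunit and the protein that amanitin binds (ENSDARG00000076177, chromosome 12, 23915881 to 23926807), stood at 67.5 FPKM in amanitin, 31.0 in CNOT7-DN and 30.7 in miR-430 MO, against 41.5 in control B, 32.9 in control 6 hpf and 12 at 2 hpf. The Mediator subunit med14 stood at 79.0 FPKM in amanitin, 22.5 in CNOT7-DN and 21.4 in miR-430 MO, against 36.5 in control B, 16.9 in control 6 hpf and 19.8 at 2 hpf. For polr2a the 2 hpf value was the lowest of the 6, whereas for med14 the lowest was control 6 hpf. The cyclin ccnk, a partner of transcription elongation kinases, had a ratio to 2 hpf of 4.21. The cell cycle coregulator hcfc1b stood at 45.4 FPKM in amanitin and 40.8 in control B, with a q of 0.317 between them in the authors' deposited table.

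Chromatin regulators made up 10 members, with ratios between 3.94 and 6.81. KDM4A (1 of 2), a histone lysine demethylase, stood at 16.5 FPKM in amanitin, 3.09 in CNOT7-DN and 1.42 in miR-430 MO, against 8 in control B, 2.78 in control 6 hpf and 2.66 at 2 hpf. PHC3 (2 of 2), a Polycomb repressive complex subunit, stood at 19.6 FPKM in amanitin, 5.65 in CNOT7-DN and 2.01 in miR-430 MO, against 6.44 in control B, 4.77 in control 6 hpf and 2.87 at 2 hpf. The SWI/SNF-type remodelling subunit arid2 stood at 27.2 FPKM in amanitin, 12.9 in CNOT7-DN and 7.97 in miR-430 MO, against 15.2 in control B, 10.3 in control 6 hpf and 5.07 at 2 hpf. The others were the SWI/SNF-type remodelling subunits arid1ab and smarcc1a, the corepressor subunits sap130a and sap130b, phc3, baz2a and a row that the reference list names KDM6B. PHC3 (2 of 2) and phc3, and likewise sap130a and sap130b, carry paired gene names and lie on different chromosomes. Whether the counting split or shared reads between them was not tested, so their single values are uncertain.

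RNA processing, decay and translation factors numbered 9, and several of them were at their highest in control B. The splicing coactivator srrm1 stood at 65.7 FPKM in amanitin, 50.2 in CNOT7-DN and 41.3 in miR-430 MO, against 94.7 in control B, 62.2 in control 6 hpf and 9.96 at 2 hpf. The splicing regulator rbm4.3 stood at 138 FPKM in amanitin, 102 in CNOT7-DN and 95.6 in miR-430 MO, against 150 in control B, 127 in control 6 hpf and 22.5 at 2 hpf. Both were at their lowest at 2 hpf and at their highest in control B, so the amanitin level lay inside the range of the 6 hpf groups. Only 4 of the 9 factors were higher in amanitin than in control B.

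Transcription factors made up 9 members. The hypoxia-inducible factor subunit hif1ab stood at 74.8 FPKM in amanitin, 24.1 in CNOT7-DN and 23.8 in miR-430 MO, against 55.4 in control B, 26.1 in control 6 hpf and 13.7 at 2 hpf. The homeodomain factor pbx3b stood at 13.2 FPKM in amanitin, 2.31 in CNOT7-DN and 1.15 in miR-430 MO, against 1.68 in control B, 0.749 in control 6 hpf and 2.5 at 2 hpf. The T-box factor eomesa, maternally supplied and a regulator of endoderm genes, stood at 111 FPKM in amanitin, 18.5 in CNOT7-DN and 32.2 in miR-430 MO, against 13 in control B, 11.7 in control 6 hpf and 31.3 at 2 hpf. For pbx3b and eomesa, unlike srrm1 and rbm4.3, both 6 hpf controls lay below 2 hpf.

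The role group of kinases held 6 members, among them 3 HIPK genes, and did not include stk40, a member with a kinase name. WNK3, which regulates ion cotransporters, stood at 37.3 FPKM in amanitin, 13.9 in CNOT7-DN and 4.86 in miR-430 MO, against 15.5 in control B, 7.32 in control 6 hpf and 5.16 at 2 hpf. The nuclear pore gave nup214 and pom121, at 12 and 37.0 FPKM in amanitin, 8.12 and 32.5 in control B, and 2.34 and 9.83 at 2 hpf. Ubiquitin ligases among the members included RNF111 and trip12. The most abundant member was lamp2, a lysosomal membrane protein, with 536 FPKM in amanitin, 139 in CNOT7-DN and 183 in miR-430 MO, against 288 in control B, 134 in control 6 hpf and 127 at 2 hpf. A gene outside these roles, the deubiquitinase otud4, stood at 93.1 FPKM in amanitin, 18.2 in CNOT7-DN and 13.2 in miR-430 MO, against 24.6 in control B, 12.6 in control 6 hpf and 17.4 at 2 hpf. The grouping by role was made after the values were seen.

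The pathways that these members belong to were described with whole lists, which were drawn up with earlier results known. Among 16 rows for ER exit and COPII that the authors tested between amanitin and 2 hpf, 12 were higher and 1 lower with a q under 0.05 in the authors' deposited table, with a median log2 ratio of 0.85 against -0.34 over all rows. Of these rows 3 are members (SEC16A, SEC24A and sec24c), so their direction was fixed by the selection. Outside the members, 1 row of mia3, a cargo receptor for collagen, stood at 141 FPKM in amanitin, 52.4 in control B and 44.2 at 2 hpf. Another mia3 row stood at 10.4 FPKM in amanitin, 3.79 in control B and 6.71 at 2 hpf, with a q of 0.709 between amanitin and 2 hpf in the authors' deposited table. The fall was that of sec23b, at 31.4 in amanitin and 59.7 at 2 hpf. Chromatin remodellers and histone modifiers had 21 of 28 rows higher and 4 lower, and arid1ab is among the members. Splicing factors had 31 of 44 higher and 5 lower, with the members rbm4.3, sf1 and srrm1, and nuclear pore genes 10 of 17 higher and 2 lower, with the members nup214 and pom121. In each list the direction of the members was fixed by the selection, and over all rows 22.2% were higher and 44.1% lower. RNA polymerase II and elongation genes were divided, with 12 of 27 higher and 10 lower. Of 8 WNK pathway rows, 5 were higher, and the member among them is WNK3. The controls also differed for some of these lists. Control B over control 6 hpf had a median log2 ratio of 0.41 for ER exit and 0.31 for chromatin, against -0.04 over all rows. It was 0.22 for the WNK pathway, 0.15 for splicing factors, 0.07 for RNA polymerase II and -0.06 for the nuclear pore. Experiment and treatment cannot be told apart in the list counts, and nothing is read from them.

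Control B and control 6 hpf are both control groups at 6 hpf and chose no member, yet they differed for most members present at 2 hpf. Control B was the higher in 124 of the 127, and the exceptions were cib2, pde7a and si:dkey-16c7.4. Among rows at 1 FPKM or more in either control, it was the higher in 45.5% of all rows. The same held for 36.1% of the other rows at 5 FPKM or more in amanitin. In 92 of the 127 it was at least 1.5-fold higher, a share not computed for all rows. On the log2(FPKM + 1) scale, with rows kept where 1 of the groups reached an FPKM of 1, the median difference of the 127 was 0.77, against -0.04 over all rows and -0.12 over the other rows at 5 FPKM or more in amanitin. Over all members, 38 of 143 were at least 2-fold higher in control B, which is 26.6% beside 2.34% of all rows, and 2 were at least 2-fold lower beside 1.57% of all rows. Of the other rows at 5 FPKM or more in amanitin, 0.799% were at least 2-fold higher in control B. The 2 members at least 2-fold lower, si:ch211-255f4.12 and CABZ01088864.1, are listed at 0 in control B and belong to the members near 0 at 2 hpf.

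Every member in the role groups was higher in control B than in control 6 hpf, from 4 of 4 ER exit genes to 10 of 10 chromatin regulators. Over all rows, 45.5% were higher in control B. The chromatin regulators had a median log2 difference of 1.02 and the kinases 0.43. The corepressor subunit sap130b stood at 35.6 FPKM in control B and 10.5 in control 6 hpf, a log2 difference of 1.68. Its amanitin value was 48.3 FPKM, and the q between amanitin and control B was 0.612 in the authors' deposited table. By contrast eomesa had 13 FPKM in control B and 11.7 in control 6 hpf, close to each other beside its 111 in amanitin. The deposited table holds no q for the difference between the controls, so its size was not tested.

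**Figure D2:**
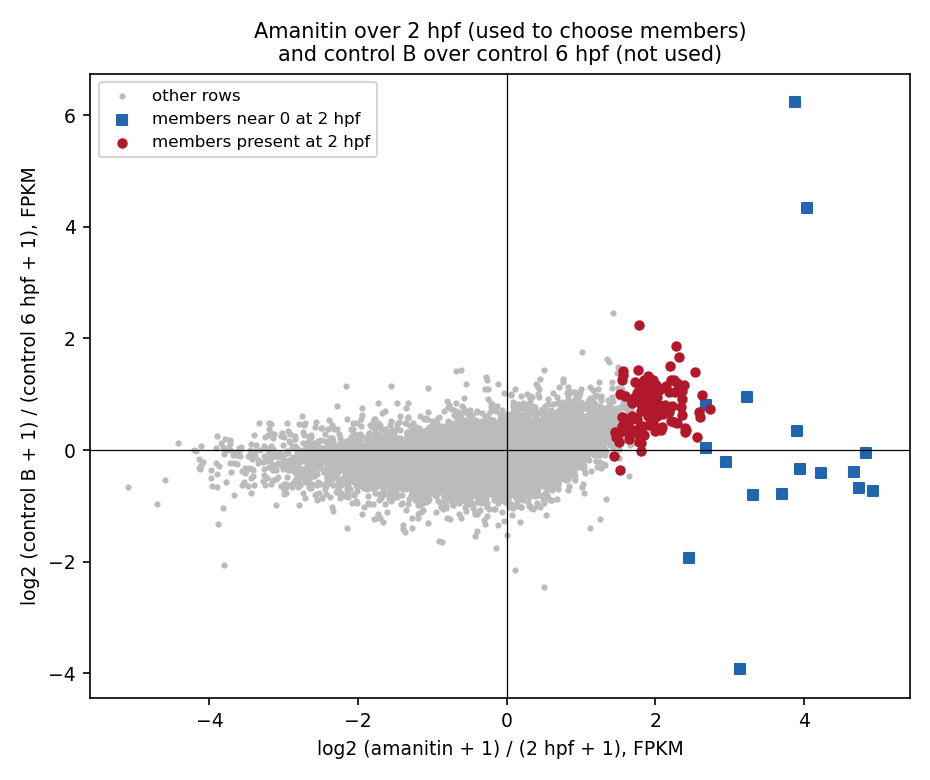
Log2 ratio of FPKM + 1 of control B over control 6 hpf, which chose no member, against that of amanitin over 2 hpf, which chose them, for rows at 5 FPKM or more in amanitin with small RNAs left out. The red points, members present at 2 hpf, lie above 0 on the vertical axis except for 3, with a median of 0.77, while the grey points centre on -0.12.

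Amanitin and control B belong to 1 experiment by their labels, and 2 hpf and control 6 hpf carry no such note, so in the ratio that chose the members the experiment and the treatment cannot be told apart. Across 9239 rows at 5 FPKM or more in amanitin, control B over control 6 hpf and amanitin over 2 hpf had a Spearman rho of 0.34 (0.31 with members left out). These ratios share no group, but the numerators of both come from the amanitin experiment. Each member's ratio of amanitin to control B was therefore also divided by its ratio of 2 hpf to control 6 hpf, a choice made after the data were seen. By this ratio of ratios the median of 126 members present at 2 hpf was 2.49, against 4.3 by the plain ratio. It was at least 2 in 91, at least 3.5 in 18 and below 1 in 0, with a lowest value of 1.10 for baz2a. The gene rimbp2 had no such ratio, since it is listed at 0 in control 6 hpf.

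SEC24A had the highest ratio of ratios, 5.46, followed by rbm4.3 at 5.19, cib2 at 5.15, PHC3 (2 of 2) at 5.04, bai2 at 4.95 and SEC16A at 4.85. The value was 4.47 for polr2a, 4.33 for srrm1 and 3.19 for eomesa. It was low for phc3, at 1.18, and for six4.3, at 1.31. Since it uses all 4 groups, including those that chose the members, it is a description of how far the ratio depends on the control taken.

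Amanitin and control B, set side by side, share the amanitin value with the selection, and nothing is read from their counts. In the authors' deposited table, 96 of 140 members tested were higher in amanitin with a q under 0.05, where 41.6% of all rows were, and 13 were lower, where 29.2% of all rows were. On the log2(FPKM + 1) scale 61 of 127 members present at 2 hpf (48%) were at least 2-fold higher in amanitin than in control B, beside 20.5% of all rows and 31.1% of the other rows at 5 FPKM or more in amanitin. The deepest falls in amanitin were of the desmosomal cadherin dsg2, at 8.16 FPKM in amanitin and 80.7 in control B, and of impdh1b, an enzyme of guanine nucleotide synthesis, at 6.63 in amanitin and 60.8 in control B. Both rows were low at 2 hpf, at 2.27 and 1.60 FPKM, and the 3 remaining 6 hpf groups held 29.3 FPKM or more. The transcriptional repressor tcf7l1a fell to 16.5 FPKM in amanitin, against 40.6 in control B, and had 3.71 at 2 hpf. The RNA decay factor rc3h1 fell to 8.31 FPKM in amanitin, against 23.9 in control B, and had 2.08 at 2 hpf. For these 4 genes amanitin lay between 2 hpf and the 6 hpf controls.

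Control embryos did not treat the members alike between 2 and 6 hpf. In the authors' deposited table, 60 of 135 members tested were higher in control 6 hpf than at 2 hpf with a q under 0.05, beside 20.8% of all rows, and 19 were lower, beside 51.7% of all rows. The 2 hpf values that chose the members enter here, so nothing is read from these shares. The median log2 ratio of members present at 2 hpf was 0.24, against -0.47 over all rows. Rescaling the groups to equal sums lowers every ratio by 0.51, which turns the members' median negative, while centring on the median gene raises every ratio by 0.47.

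The 19 members that were lower in control 6 hpf than at 2 hpf had a median of 21.6 FPKM in amanitin, 3.64 in CNOT7-DN and 2.60 in miR-430 MO, against 5.49 in control B, 2.37 in control 6 hpf and 5.75 at 2 hpf. They included eomesa, pbx3b, otud4, mark2b, rims1a, nlk2 and mkl1b, and all 19 were called higher in amanitin than in control B in the authors' deposited table, beside 41.6% of all rows, a count that the rule and the split largely fix. The 50 members present at 2 hpf that were higher in control 6 hpf had a median of 22 FPKM in amanitin, 11.9 in CNOT7-DN and 9.83 in miR-430 MO, against 21.7 in control B, 11.2 in control 6 hpf and 4.82 at 2 hpf. Of these 50, which included polr2a, SEC16A, srrm1, hif1ab and dsg2, 22 were higher and 12 lower in amanitin than in control B. The other 58 had no call between control 6 hpf and 2 hpf. Their medians were 23.7 FPKM in amanitin, 5.82 in CNOT7-DN and 4.79 in miR-430 MO, against 10.3 in control B, 5.75 in control 6 hpf and 5.06 at 2 hpf. The split uses the 2 hpf value that chose the members, so a high amanitin level beside the controls in the 19 follows from the rule, and nothing is read from the order of the classes.

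Inhibition of miR-430 and of CNOT7 were compared with control 6 hpf, and none of these groups chose a member. In the authors' deposited table, 7 of 131 members tested were higher in miR-430 MO (5.34%, beside 9.41% of all rows) and 19 were lower (14.5%, beside 16.1%). In CNOT7-DN 15 of 133 members were higher (11.3%, beside 10.1%) and 0 were lower (beside 4%) by the Cuffdiff q, with 4 lower at an unadjusted p under 0.05. The share of all rows at that unadjusted p was not computed, so nothing is read from the 4. The median log2 ratio of the members was -0.12 in miR-430 MO, the same as the -0.12 of all rows, and 0.05 in CNOT7-DN, against 0.04. At 2-fold, 3 of 137 members were higher in miR-430 MO (2.66% of all rows) and 3 were lower (2.26%). In CNOT7-DN 3 of 140 were higher (1.51%) and 1 was lower (1.26%). The shares of members called thus lay near or below the background in both comparisons.

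Single members were called higher or lower than control 6 hpf. The T-box gene eomesa rose to 32.2 FPKM in miR-430 MO, against 11.7 in control 6 hpf, a log2 ratio of 1.39 with a q of 0.000589 in the authors' deposited table. The polarity kinase mark2b rose to 5.78 FPKM in miR-430 MO, against 2.37 in control 6 hpf, with a log2 ratio of 1.01 and a q of 0.000589. A row that the reference list names WIPF2 had 10.3 FPKM in miR-430 MO and 4.57 in control 6 hpf, a log2 ratio of 1.02 with the same q. The lysosomal gene lamp2 and sec24c also rose in miR-430 MO, by log2 ratios of 0.44 and 0.74. In control B, lamp2 stood at 288 FPKM and the WIPF2 row at 11.4, both above their miR-430 MO levels. There eomesa stood at 13 FPKM, mark2b at 3.51 and sec24c at 19.2, all below their miR-430 MO levels. Among the 19 members that fell in miR-430 MO were KDM4A (1 of 2), at 1.42 FPKM in miR-430 MO and 2.78 in control 6 hpf, hipk2, pom121, tcf7l1a and srrm1.

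The presynaptic scaffold gene rims1a showed the largest called rise in CNOT7-DN, to 12.5 FPKM beside 2.14 in control 6 hpf, a log2 ratio of 2.1 with a q of 0.000996 in the authors' deposited table. In miR-430 MO rims1a was at 2.07 FPKM, with a q of 0.965. WNK3 rose to 13.9 FPKM in CNOT7-DN and was at 7.32 in control 6 hpf, while in miR-430 MO it was at 4.86. The other 2 members at least 2-fold higher in CNOT7-DN, a Vault RNA row and si:dkey-43b14.3, are listed at 0 in control 6 hpf. The Vault RNA row had a q of 0.0841, and the authors did not test si:dkey-43b14.3 in this comparison. In CNOT7-DN eomesa was at 18.5 FPKM and mark2b at 4.6, both higher than in control 6 hpf with a q of 0.000996 in the authors' deposited table. The genes sec24c and WIPF2 were also called higher in CNOT7-DN, with a q of 0.0361 and 0.0386, while lamp2 was not, with a q of 0.892. Both comparisons use the same control 6 hpf value, so a low value there raises both ratios at once. In control B, WNK3 stood at 15.5 FPKM, sec24c at 19.2 and WIPF2 at 11.4, all above their CNOT7-DN levels. There rims1a stood at 5.49 FPKM, eomesa at 13 and mark2b at 3.51, all below their CNOT7-DN levels.

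**Figure D3:**
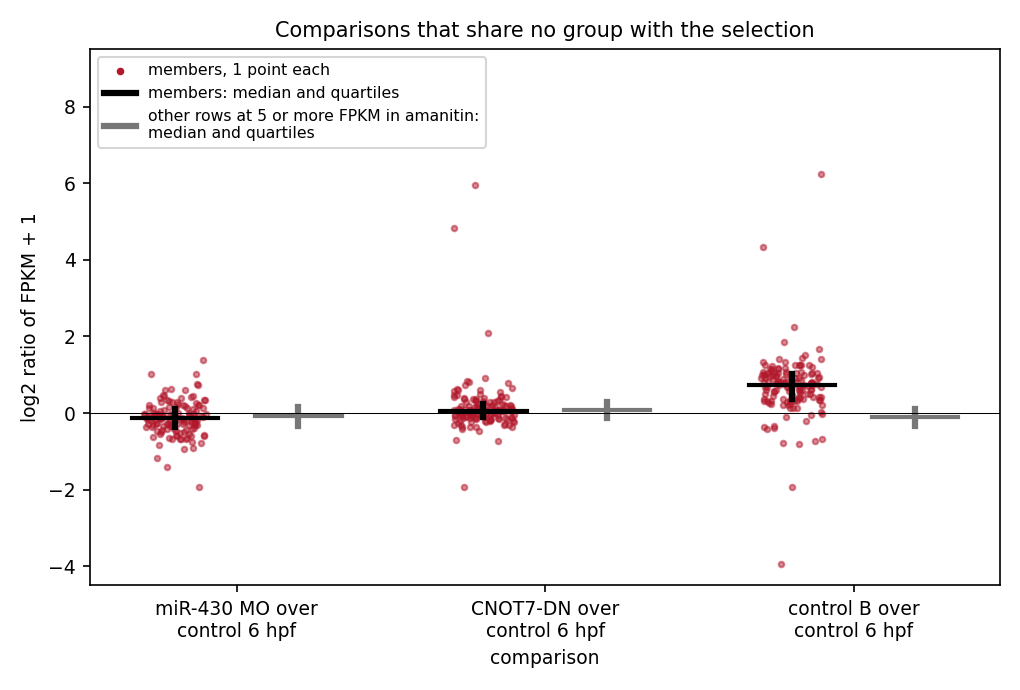
Log2 ratios of FPKM + 1 in 3 comparisons among groups that chose no member. Red points are members, black bars their median and quartiles, and grey bars the same for other rows at 5 FPKM or more in amanitin. The members' median is -0.12 for miR-430 MO and 0.05 for CNOT7-DN, near the grey bars, and 0.74 for control B over control 6 hpf, against -0.12.

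The 18 members near 0 at 2 hpf were mostly unnamed rows, 15 of them with clone names, and their loci were short, with a median span of 2187 bp against 26168 bp for the members present at 2 hpf and 19356 bp for all rows at 5 FPKM or more in amanitin. On chromosome 4 lay 8 of the 18, or 44.4%, while 2.73% of rows at 5 FPKM or more in amanitin lay there. Their levels were 5.42 to 29.4 FPKM in amanitin (median 17.0), 8.29 to 66.4 in CNOT7-DN (median 13.4) and 4.03 to 45 in miR-430 MO (median 7.11), against 5.53 to 51.0 in control B (median 8.35) and 6.30 to 67.7 in control 6 hpf (median 12.7). At 2 hpf the highest was 0.0957 FPKM, so these rows were at or near 0 there and at 4.03 FPKM or more in every 6 hpf group. In the authors' deposited table, si:dkey-254e13.13, si:dkey-220a11.9 and si:dkey-54i3.2 were not called between amanitin and 2 hpf, with q-values of 0.253, 0.294 and 0.139. Nor were they called between control 6 hpf and 2 hpf, with q-values of 0.240, 0.277 and 0.130. The other chromosome 4 rows were called in both. The files give the 8 rows clone names only, and no function is assigned to them here.

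In miR-430 MO, a group that the rule did not use, all 8 chromosome 4 rows were lower than in control 6 hpf, by log2 ratios between -1.17 and -0.44 with a median of -0.64, against -0.12 over all rows. Over all rows, 9694 of 15611 were lower in miR-430 MO. In the authors' deposited table, 5 of the 8 had a q under 0.05, beside 16.1% of all rows called lower, and 3 did not, with q-values between 0.00410 and 0.574 over the 8. Of all members near 0 at 2 hpf, 14 of the 15 with a ratio were lower in miR-430 MO, beside the same 9694 of 15611 rows. Among them, on other chromosomes, were CABZ01088864.1 at -1.93 and si:ch211-255f4.12 at -1.42. The row CABZ01088864.1 is listed at 0 in miR-430 MO, against 2.82 FPKM in control 6 hpf, with a q of 0.429 in the authors' deposited table. The authors did not test si:ch211-255f4.12 in this comparison. The row si:dkey-23a17.3 stood at 4.03 FPKM in miR-430 MO and 10.3 in control 6 hpf, a log2 ratio of -1.17 with a q of 0.00732. Another row of the same clone, si:dkey-23a17.6, stood at 15.8 FPKM in miR-430 MO and 27.4 in control 6 hpf. In CNOT7-DN 5 of the 8 were higher and 3 lower than control 6 hpf, and 0 had a Cuffdiff q under 0.05 in the authors' deposited table. At an unadjusted p under 0.05, 1 was higher and 0 lower, and the share of all rows at that p was not computed.

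Between amanitin and control B the chromosome 4 rows were divided, 5 higher and 3 lower in amanitin. The row si:dkey-40n15.3 stood at 29.4 FPKM in amanitin and 8.64 in control B, while si:dkey-254e13.13 fell to 26.2 FPKM in amanitin, against 51.0 in control B. Whether these rows share reads with near-identical copies was not tested, so the 8 may not be independent.

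**Figure D4:**
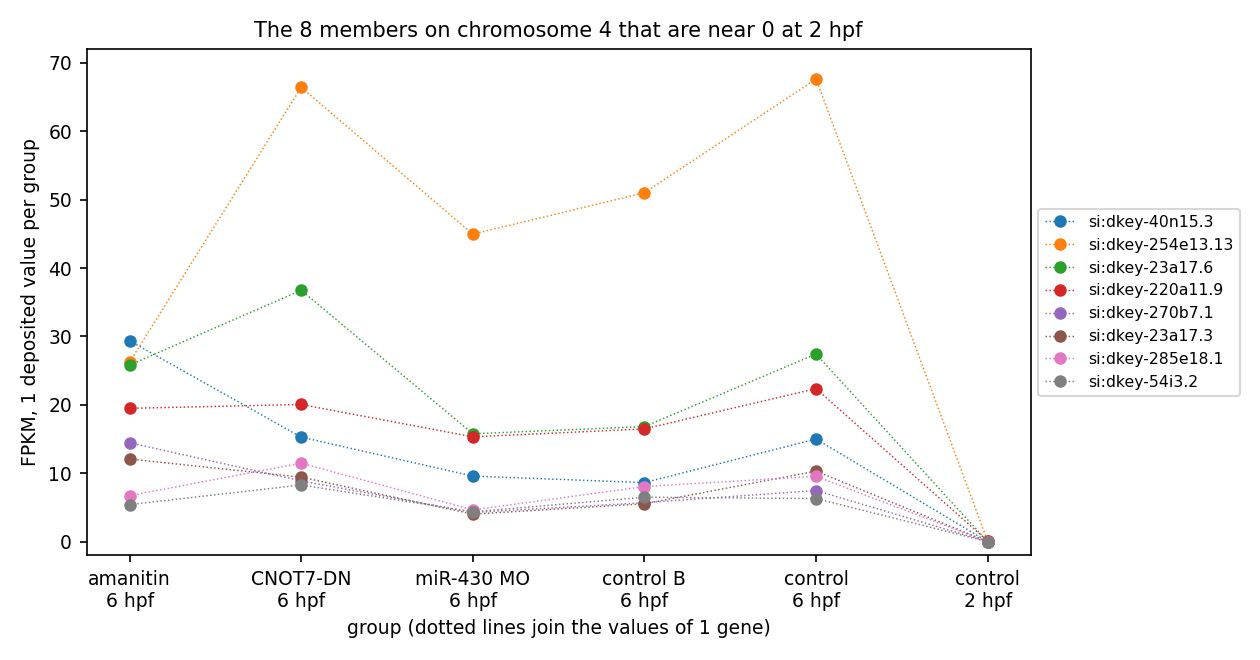
FPKM in the 6 groups of the 8 members on chromosome 4 that were near 0 at 2 hpf, 1 deposited value per group. All 8 are lower in miR-430 MO than in control 6 hpf, and all are at 0.0957 FPKM or less at 2 hpf.

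The absence at 2 hpf was followed across the whole table. The small RNA rows that the rule names were left out, and vault RNAs were not. Then 364 rows were under 0.1 FPKM at 2 hpf and at 5 FPKM or more in control 6 hpf. In amanitin 350 of these were under 1 FPKM and 11 were at 5 or more. All 11 are members, which follows from the rule at these levels, and 8 of them are the chromosome 4 rows. The other 3 are a Vault RNA row, si:ch211-255f4.12 and si:ch211-207c7.6. Vault RNAs are short RNAs of the vault particle, made by RNA polymerase III. This row stood at 27.5 FPKM in amanitin, 48.1 in CNOT7-DN and 49.8 in miR-430 MO, against 62.3 in control B, 64.9 in control 6 hpf and 0 at 2 hpf. The other Vault RNA member stood at 13.8 FPKM in amanitin, 61.4 in CNOT7-DN and 74.5 in control B. It is listed at 0 in miR-430 MO, control 6 hpf and 2 hpf, so the controls at 6 hpf differed widely for it. The authors did not test either Vault RNA member between amanitin and 2 hpf. The retinoid receptor row rxrga, also a member, stood at 15.5 FPKM in amanitin and 19.2 in control B and is listed at 0 in the other 4 groups. The authors' deposited table holds no completed test for rxrga in any comparison, and its locus is shared with another row, so its levels are uncertain.

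Members present at 2 hpf were spread over the chromosomes, with 14 on chromosome 7 as the largest number, or 11% against 5.22% of rows at 5 FPKM or more in amanitin. Of these 14, 6 unnamed rows lay within 125856 bp, between 76149890 and 76275746 on Zv9. That stretch holds 8 rows in all, these 6 members included. Of the 6 members CABZ01067170.1 stood at 25.2 FPKM in amanitin, 3.64 in CNOT7-DN and 5.46 in miR-430 MO, against 9.61 in control B, 4.11 in control 6 hpf and 6.63 at 2 hpf. CABZ01081472.1 stood at 24.8 FPKM in amanitin, 2.83 in CNOT7-DN and 6.02 in miR-430 MO, against 9.60 in control B, 4.27 in control 6 hpf and 6.53 at 2 hpf. Their profiles were nearly the same, and whether the 6 rows are separate genes was not tested. Of all members 15.2% shared a locus with another row, against 17.9% of rows at 5 FPKM or more in amanitin.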

How the data were processed

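RNA of pooled whole embryos was sequenced as stranded total RNA after ribosomal RNA removal, per the labels' protocols. The submitters' processing notes name TopHat 1.4.0, Cuffdiff 2.1.1 and the build Zv9. Which annotation, strand setting and scaling were used is not stated there or in the labels. The deposited table holds the FPKM of both groups in 5 comparisons, the authors' p-value and q-value and a test status, per the file headers. The authors' q may measure technical spread only.

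Each comparison used the FPKM deposited with it. Log2 ratios of FPKM + 1 were computed with Python 3.11.15, numpy 2.4.6 and pandas 2.3.3 for rows at 1 FPKM or more in either group, and the added 1 shrinks ratios of low rows. Calls need a q under 0.05 and a completed test. No test was computed here.

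The members and lists were chosen with earlier results of these data known. The rule for named genes took the 25 largest ratios to 2 hpf with a gene symbol on 1 row and a q under 0.05, the 5 rows nearest either side of the threshold, members 2-fold apart with a q under 0.05 in miR-430 MO or CNOT7-DN, and list members. Others named were chosen after their values were seen. Alternatives were other thresholds, pseudocounts, scalings and controls. No sequence was used here.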

Additional observations from a re-analysis of the deposited data

How the results depend on the processing

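The number of members depended on the thresholds and on the control taken. It was 357 at 2.5-fold, 58 at 5-fold, 221 with a minimum of 1 FPKM and 256 after centring on the median gene, against 145. It was 45 by the ratio of ratios, 1051 with control B and 743 with control 6 hpf in place of 2 hpf, alternatives chosen after seeing the data. These sets held 31, 22 and 70 of the 145 members, in that order. Members present at 2 hpf gave 18 of the 31, so the 31 also include members near 0 at 2 hpf. Most members near 0 are listed at 0 there, so their ratio of ratios has no finite value. With a pseudocount of 5, members 2-fold higher were 1 in miR-430 MO and 12 in control B, and members 2-fold lower were 0 in miR-430 MO, 0 in CNOT7-DN and 1 in control B. With a pseudocount of 0.1, 8 were lower in miR-430 MO and 5 higher in CNOT7-DN. A minimum of 5 FPKM left 0 lower in CNOT7-DN. The cause of these moves was not tested. The other 41 alternatives stayed within 1.5 times the count or kept the median. Centring on the median gene moved log2 ratios by 0.12 in miR-430 MO, -0.12 in amanitin over control B and 0.34 in amanitin over 2 hpf, and equal sums by 0.11 in control B over control 6 hpf and 0.37 in amanitin over control B. Both scalings raise every ratio of control B over control 6 hpf, by 0.11 and 0.04, so they cannot lower one, and pde7a turns positive. No paired analysis was possible because each group has 1 deposited value. Depth is unknown, so levels near 0 carry no limit of detection.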

Other observations

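Some lists on RNA metabolism hold no member, the RNA exosome list because the rule leaves out exosc1. Amanitin against 2 hpf is the contrast that chose the members, and differences between lists were not tested. Of 14 rows of the RNA exosome, the complex that degrades RNA from its end, 3 were higher and 7 lower in amanitin than at 2 hpf with a q under 0.05 in the authors' deposited table, with a median log2 ratio of -0.36. Of 9 splicing kinase rows, 2 were higher and 6 lower, with a median of -0.59, and the 44 splicing factor rows, 3 of them members, had a median of 0.50. The mitochondrially encoded rows are listed at 0 in all groups.

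Of rows under 0.1 FPKM at 2 hpf and at 1 FPKM or more in amanitin there were 33, and 8 of these (24.2%) lay on chromosome 4, against 2.88% of the 12761 rows at 1 FPKM or more in amanitin. All 8 are members, so the lower level brought in no further row of that chromosome.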
